A study of Mus musculus with 4 samples.

Results

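Oxidative phosphorylation subunits are the nuclear-encoded proteins of the respiratory chain and the ATP synthase. Genes were taken by symbol (Nduf for complex I, Sdh for complex II, Uqcr for complex III, Cox for complex IV and Atp5 for complex V), from probe sets that name a single gene, and each gene was read from its brightest probe set, by the average of the 4 arrays. This gave 81 of the 18193 genes measured, with 35 in complex I, 4 in complex II, 8 in complex III, 17 in complex IV and 17 in complex V. Ndufa4 was counted in complex I by its symbol, although current structures place it in complex IV, and the group includes Ndufa4l2, a paralogue of it, and Cox7a2l, a factor of respiratory supercomplexes. Ndufa11, Ndufs6 and 5 related symbols were read only by probe sets that name several genes and were not counted.

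The cells were haematopoietic stem cells (HSCs), sorted from bone marrow of transgenic mice as lineage-negative, Sca+, Kit+, CD48- and CD150+ cells, without culture or treatment. All animals carried an N-myc gene fused to mCherry, a red fluorescent protein, and its fluorescence divided the HSCs into N-myc high cells (2 arrays, mouse 1 and mouse 2) and N-myc low cells (2 arrays, mouse 1 and mouse 2). The sources used here do not give strain, age or sex, and every cell analysed, in both fractions, carried the fusion. The comparison asks how the level of N-myc, a transcription factor of the MYC family, relates to gene expression within the HSC compartment.

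The respiratory chain passes electrons from NADH (complex I) and succinate (complex II) through complex III to oxygen at complex IV, and the proton gradient built on the way drives ATP synthesis by complex V. Long-term HSCs are generally described as relying on glycolysis more than their progeny do, and mitochondrial activity rises as HSCs leave quiescence. MYC proteins are known to promote the expression of genes for mitochondrial biogenesis and ribosomes in several cell types.

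Values are log2 probe set intensities after RMA, and a difference is always N-myc high minus N-myc low on that log2 scale. Mycn itself was at 10.48 and 10.39 in the N-myc high arrays of mouse 1 and 2, against 9.44 and 9.65 in the N-myc low arrays, a difference of 0.89 with a standard error (SE) of 0.19 (limma adjusted p = 0.762). Gene levels correlated at 0.980 between the N-myc high arrays and at 0.972 between the N-myc low arrays. Both arrays of mouse 1 carried the female transcript Xist (11.38 in N-myc high, 11.10 in N-myc low) together with the Y-linked Eif2s3y (8.53 and 8.43). Those of mouse 2 had Xist at 3.84 and 3.70 and Eif2s3y at 9.40 and 9.67. Whether mouse 1 was a single animal was not tested. Differences called within a mouse are between arrays of the same mouse number, and are within an animal only if that number stands for a single animal. Marker genes of blood cell types were counted as higher or lower where the N-myc high pair of arrays was entirely above or below the N-myc low pair, as 15.6% and 20.8% of all genes were. Of the 6 measured HSC markers 4 were higher and 0 lower. Of the 5 multipotent progenitor markers 4 were lower, with a summed level of 11.37 to 11.72 in N-myc high and 12.22 to 12.49 in N-myc low. Flt3 was higher (8.18 and 8.28 in N-myc high, against 7.49 and 6.56 in N-myc low). Cd48, whose protein the sort selected against, was among the lower ones (7.42 and 7.11 in N-myc high, against 9.89 and 9.07 in N-myc low). In a list drawn up for the negative gates of the sort, 6 genes were measured, with 1 higher and 2 lower (Cd48 and Itgam). The higher one, Ptprc, was at 10.27 and 10.16 in N-myc high, against 9.87 and 10.08 in N-myc low. Sorted cells of both fractions thus expressed Ptprc, and it does not stand for cells the sort removed. Of the 7 erythroid markers 4 were lower and 1, Rhag, was higher, with a summed level of 9.03 to 9.37 in N-myc high and 9.81 to 10.04 in N-myc low. Of the 9 granulocyte and monocyte markers 7 were lower and 1 higher, with 14.87 to 15.03 in N-myc high and 15.15 to 15.16 in N-myc low. That sum rested largely on S100a8 and S100a9, at 13.22 to 13.69 over the 4 arrays, each with a difference of -0.13. Of the 5 mast cell and basophil markers 4 were lower and 0 higher, with 6.61 to 6.96 in N-myc high and 7.77 to 7.78 in N-myc low. Of the 8 T and NK cell markers 4 were lower and 0 higher, with 9.54 to 9.55 in N-myc high and 10.07 to 10.34 in N-myc low, while Cd3e and Cd3g overlapped between the fractions. Gzmb, which was lower, is in both of these lists. Of the 8 macrophage markers 3 were higher and 1 lower, and their summed level (9.45 to 9.58 in N-myc high and 8.45 to 8.53 in N-myc low) rested largely on C1qb, at 8.24 and 8.48 in N-myc high, against 5.76 and 5.64 in N-myc low, while C1qa, C1qc, Vcam1 and Adgre1 overlapped. Of the 6 megakaryocyte markers 2 were higher and 4 lower. Their summed level went the other way, with 11.86 to 12.02 in N-myc high and 11.62 to 11.72 in N-myc low. The 6 B cell markers had 2 higher and 0 lower, with 8.64 to 8.95 in N-myc high and 8.09 to 8.31 in N-myc low. The 7 endothelial and stromal markers had 1 higher and 2 lower, and their summed levels overlapped. In sorted bulk samples, fewer cells of a type and less RNA per cell cannot be told apart, and the part of any of these cell types in the values reported here was not tested.

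No oxidative phosphorylation gene passed a limma adjusted p under 0.05. The same held for all genes tested (0%), and the lowest adjusted p among the 81 members was 0.779. The median difference over the 81 members was -0.07, beside -0.03 over all genes, with -0.10 within mouse 1 and 0.03 within mouse 2. In number, 33 members had a positive and 48 a negative difference (59.3% negative, against 54.7% of all genes). Most members (76 of 81) lay at or above the median level of all genes. Of the genes at that level 49.1% had a negative difference, and their median difference was 0.01. At an unadjusted limma p under 0.05 there were 2 members, both lower in N-myc high, where 6.31% of all genes passed in either direction (3.53% higher, 2.78% lower). These were Ndufa1 of complex I and Cox6b2 of complex IV, and a fit that blocked on the mouse left 1 member at that threshold.

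The subunit genes differed little between the fractions. The median size of the difference, regardless of sign, was 0.15 over the members and 0.20 over all genes. The 95% interval of the difference, from the moderated limma fit, lay within 1 log2 unit of 0 for 73 of the 81 members (90.1%), where 63.3% of all genes met that bound. Thus a 2-fold difference in either direction lay outside the interval of 73 members. The 8 whose interval reached that size were Ndufa1, Ndufs8, Ndufb1, Ndufb4, Ndufs3 and Ndufb9 of complex I, Sdhb of complex II and Cox7c of complex IV.

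**Figure D1:**
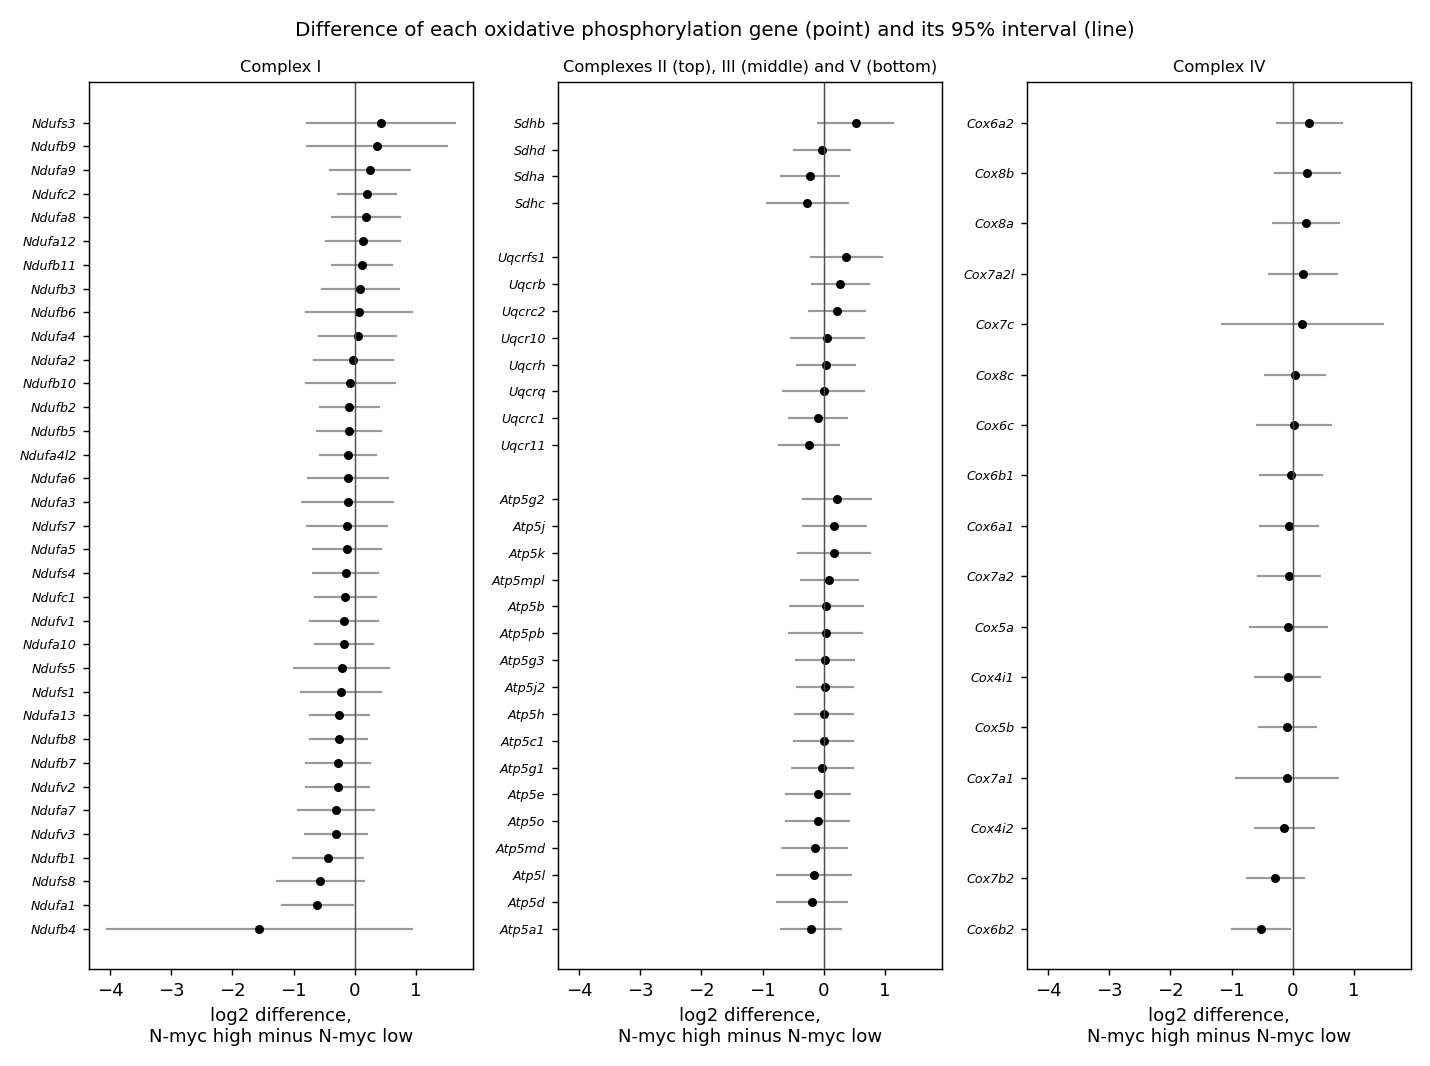
Log2 difference, N-myc high minus N-myc low, of each of the 81 genes (point) with its 95% interval from the moderated fit (line), by complex and sorted by size. Nearly all intervals cross 0, those of Ndufa1 and Cox6b2 lie below it, and the wide interval of Ndufb4 comes from the value in N-myc high mouse 1.

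The 4 arrays did not split by fraction for most members. The N-myc high pair of arrays was entirely above the N-myc low pair for 10 members (12.3%, where 15.6% of all genes did). It was entirely below for 19 members (23.5%, where 20.8% of all genes did). Among genes at or above the median level these shares were 19.1% above and 18.0% below. The array that stood out was N-myc low mouse 1, which was the highest of the 4 for 44 of the 81 members (54.3%, against 27.7% of all genes) and the lowest for 3. Over all genes that array was the lowest for 22.0%. N-myc low mouse 2 was the lowest for 34 members (42.0%, against 25.4% of all genes) and N-myc high mouse 2 for 31 (38.3%, against 22.8%). The median deviation of the members from their own mean over the arrays was 0.01 in N-myc high mouse 1 and -0.05 in N-myc high mouse 2, against 0.11 in N-myc low mouse 1 and -0.08 in N-myc low mouse 2. The 2 N-myc low arrays thus lay at the high and the low end. The median difference over all members was 0.06 when N-myc low mouse 1 was left out and -0.17 when N-myc low mouse 2 was, so its sign depended on which of these arrays was kept.

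**Figure D2:**
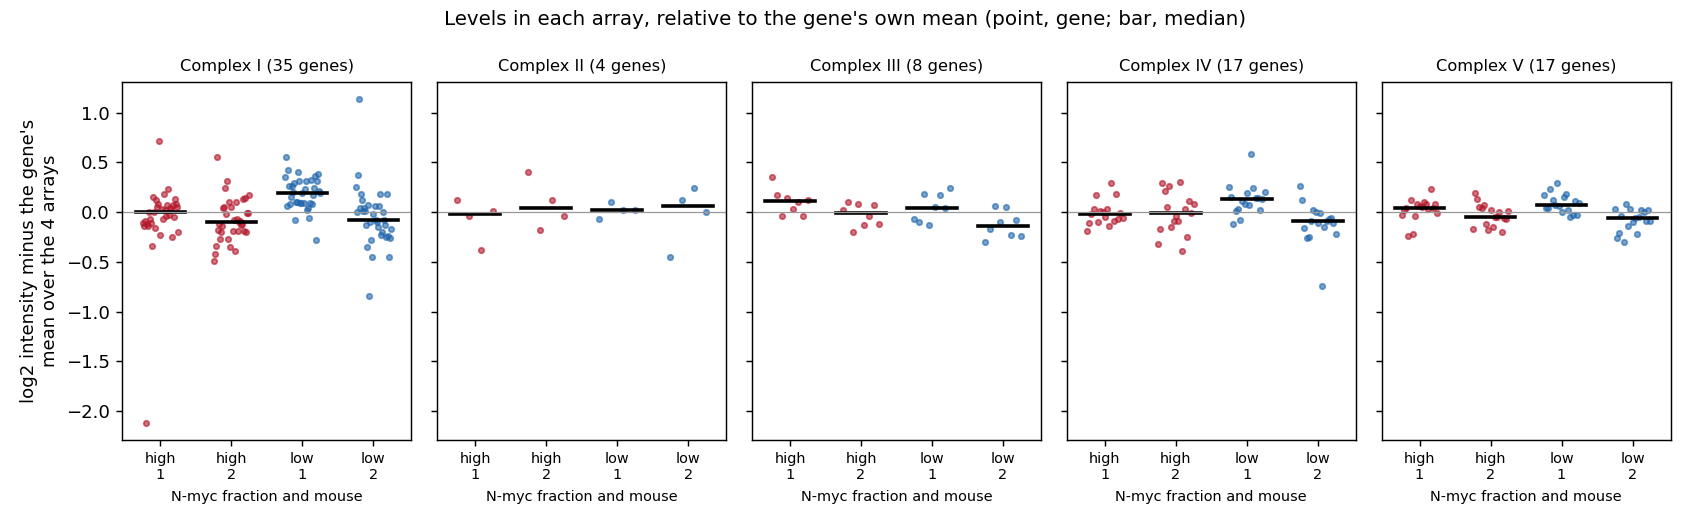
Log2 intensity of each gene minus its own mean over the 4 arrays, by array (N-myc fraction and mouse number) and complex; points are genes and bars are medians. N-myc low mouse 1 has the highest median in complexes I, IV and V, while N-myc low mouse 2 is low in complexes III, IV and V.

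Promoter sequence was set beside these values, because MYC proteins bind the E-box and because NRF1, ETS factors such as GABP, and YY1 are known regulators of respiratory chain genes. RefSeq windows (GRCm38.p6, 250 bases before to 50 after the start of the gene) were found for 66 of the 81 members. On either strand, the E-box CACGTG was in the windows of 6 members (9.09%) and of 8.09% of all 27025 genes with a window. The NRF1 motif GCATGCGC was in 9 members (13.6%, against 3.05% of all genes), an ETS motif (CCGGAAGT or ACCGGAAG, which can overlap) in 11 (16.7%, against 5.52%) and the YY1 motif AAGATGGCG in 6 (9.09%, against 1.64%). At least 1 of these motifs was in the windows of 29 members. So the letters of the mitochondrial regulators were more frequent in these windows than in those of all genes, while the E-box was about as frequent. A match describes the letters and does not show that a factor binds there.

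The members with an E-box were Ndufa7 and Ndufv1 of complex I and Atp5g1, Atp5g3, Atp5l and Atp5pb of complex V, and their median difference was -0.09, against -0.08 in the other members with a window. Members with the NRF1 motif had a median of -0.06 (-0.08 without it), those with an ETS motif 0.01 (-0.09 without it) and those with the YY1 motif -0.05 (-0.08 without it). Over all genes the medians with and without each motif lay between -0.04 and -0.03. The differences between these medians were not tested.

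The windows printed here belong to members of 4 complexes described in the next paragraphs and show each motif in place. They are printed 5′ to 3′ on the strand of the gene, with motif letters in capitals, as found on either strand. Ndufv1 (chr19:4012706-4013005, minus strand) and Atp5g1 (chr11:96075582-96075881, minus strand) hold an E-box, the first at -169 and the other at -44 from the start. Sdhb (chr4:140961021-140961320, plus strand) and Uqcr11 (chr10:80406772-80407071, minus strand) hold both an NRF1 and an ETS motif. Ndufs8 (chr19:3912725-3913024, minus strand) holds an ETS motif at 16 and Ndufa9 (chr6:126849095-126849394, minus strand) a YY1 motif at 30, both after the start. The windows of Ndufa1 and Cox6b2 hold no match to these letters.
Ndufv1: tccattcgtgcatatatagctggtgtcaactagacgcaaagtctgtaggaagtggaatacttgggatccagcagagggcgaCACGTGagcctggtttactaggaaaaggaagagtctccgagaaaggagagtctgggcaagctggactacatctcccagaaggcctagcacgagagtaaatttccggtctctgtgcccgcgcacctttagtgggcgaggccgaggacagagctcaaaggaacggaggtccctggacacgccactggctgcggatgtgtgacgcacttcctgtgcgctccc
Atp5g1: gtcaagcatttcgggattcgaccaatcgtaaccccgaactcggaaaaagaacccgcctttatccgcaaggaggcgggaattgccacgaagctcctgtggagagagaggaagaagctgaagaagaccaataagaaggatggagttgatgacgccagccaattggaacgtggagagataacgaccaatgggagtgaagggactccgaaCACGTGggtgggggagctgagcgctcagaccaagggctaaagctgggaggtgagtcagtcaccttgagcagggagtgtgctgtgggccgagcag
Sdhb: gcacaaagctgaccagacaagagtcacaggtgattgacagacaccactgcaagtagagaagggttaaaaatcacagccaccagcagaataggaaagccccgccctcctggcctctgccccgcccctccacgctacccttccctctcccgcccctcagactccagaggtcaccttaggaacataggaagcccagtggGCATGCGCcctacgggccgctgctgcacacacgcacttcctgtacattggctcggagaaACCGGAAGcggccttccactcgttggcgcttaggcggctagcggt
Uqcr11: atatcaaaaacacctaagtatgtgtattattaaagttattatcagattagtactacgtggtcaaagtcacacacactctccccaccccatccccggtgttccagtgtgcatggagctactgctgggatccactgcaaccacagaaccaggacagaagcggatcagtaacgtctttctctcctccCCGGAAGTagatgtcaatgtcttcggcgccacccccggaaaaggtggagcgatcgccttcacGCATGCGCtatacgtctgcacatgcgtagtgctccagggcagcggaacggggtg
Ndufs8: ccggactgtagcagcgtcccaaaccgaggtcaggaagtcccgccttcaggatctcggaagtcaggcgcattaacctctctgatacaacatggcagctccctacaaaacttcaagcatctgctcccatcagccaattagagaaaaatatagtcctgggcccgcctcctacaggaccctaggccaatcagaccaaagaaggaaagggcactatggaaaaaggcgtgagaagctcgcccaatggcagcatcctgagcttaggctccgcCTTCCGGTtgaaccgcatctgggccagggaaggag
Ndufa9: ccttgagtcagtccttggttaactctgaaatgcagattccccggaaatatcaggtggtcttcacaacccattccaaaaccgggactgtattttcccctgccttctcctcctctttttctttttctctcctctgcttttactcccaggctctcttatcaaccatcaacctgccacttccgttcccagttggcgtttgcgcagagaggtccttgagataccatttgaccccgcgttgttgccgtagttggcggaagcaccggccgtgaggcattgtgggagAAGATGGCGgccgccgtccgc

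Most complex I genes had a negative difference, although none passed the adjusted threshold. Of the 35 genes, 25 had a negative difference (71.4%, where 54.7% of all genes did) and 16 were lower within both mice (45.7%, against 29.7% of all genes), while 3 were higher within both (8.57%, against 23.2%). Both N-myc high arrays lay below both N-myc low arrays for 11 of the 35 (31.4%) and above them for 1 (2.86%), with the shares of all genes at 20.8% and 15.6%. Among these 11 only Ndufv2 had probe sets that disagreed in sign, with -0.28 in the brightest and 0.33 and 0.33 in the others. Ndufv2 was chosen for mention after its values were seen. Among genes at or above the median level, 49.1% had a negative difference, 25.8% were lower within both mice and 28.1% higher within both. There the N-myc high arrays lay below for 18.0% and above for 19.1%. The median difference was -0.12, made of -0.22 within mouse 1 and -0.05 within mouse 2. N-myc low mouse 1 was the highest array for 23 of the 35 (65.7%, against 27.7% of all genes). The median was -0.01 without that array and -0.27 without N-myc low mouse 2.

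Ndufa1, a small membrane subunit needed for complex I assembly and encoded on the X chromosome, was at 10.56 and 10.18 in the N-myc high arrays of mouse 1 and 2, against 11.03 and 10.92 in the N-myc low arrays. The groups did not overlap, and the difference was -0.61 (SE 0.22, 95% interval -1.18 to -0.03, limma adjusted p = 0.779), with -0.47 within mouse 1 and -0.75 within mouse 2. It rested on 1 probe set. Ndufs8, an iron-sulfur core subunit on the path from the flavin to ubiquinone, whose ETS motif is shown above, was at 10.30 and 10.02 in N-myc high, against 10.995 and 10.45 in N-myc low. Its difference was -0.56 (SE 0.27, limma adjusted p = 0.793). All 6 probe sets of Ndufs8 had both N-myc high arrays below both N-myc low arrays, with differences of -0.12 to -0.56, although they share the same RNA and are not replicates. Ndufb1, an accessory subunit of the membrane arm, was at 7.14 and 6.90 in N-myc high, against 7.30 and 7.61 in N-myc low (difference -0.43, SE 0.22).

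Other core subunits differed less. Ndufv1, which binds NADH and the flavin and has an E-box in its window, was at 10.23 and 10.51 in N-myc high, against 10.64 and 10.44 in N-myc low, so the groups overlapped (difference -0.17, SE 0.21). Ndufs1, the largest iron-sulfur subunit, gave -0.22 (SE 0.25). Ndufs3, a core subunit of the peripheral arm, was at 10.15 and 10.35 in N-myc high, against 10.44 and 9.19 in N-myc low. Its difference of 0.44 (SE 0.45) came from the low value in N-myc low mouse 2, and within mouse 1 it was -0.29. Ndufc2 was the member of complex I whose N-myc high arrays (11.85 and 11.74) both lay above its N-myc low arrays (11.62 and 11.57), with a difference of 0.20 (SE 0.18). The accessory subunit Ndufa9 had a difference of 0.25 (SE 0.24), with opposite signs in the mice. Ndufa4 gave 0.05 and its paralogue Ndufa4l2, which is induced by hypoxia, -0.10, both smaller than their SE of 0.24 and 0.17.

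The largest difference in size among all members, -1.56 for Ndufb4, was chosen for mention after its value was seen. Its probe set was at 4.40 and 7.08 in N-myc high, against 6.95 and 7.67 in N-myc low, so that the size of the difference came from N-myc high mouse 1 (SE 0.94, limma adjusted p = 0.811). Another 2 probe sets, which also name the related Ndufb4b and Ndufb4c and so did not enter the fit, gave -0.39 and -0.24.

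The 4 genes of complex II, which links the citric acid cycle to the respiratory chain, did not move together. Sdhb, the iron-sulfur subunit, was at 9.78 and 10.06 in N-myc high, against 9.59 and 9.21 in N-myc low. Its groups did not overlap, and the difference was 0.52 (SE 0.23, 95% interval -0.09 to 1.14, limma adjusted p = 0.793), with 0.19 within mouse 1 and 0.85 within mouse 2. Sdha, the catalytic flavoprotein, was at 10.58 and 10.45 in N-myc high, against 10.72 and 10.75 in N-myc low, the opposite direction (difference -0.22, SE 0.18), but its second brightest probe set gave 0.39. The membrane anchors Sdhc and Sdhd gave -0.26 (SE 0.25) and -0.02 (SE 0.17), while another probe set of each gave 0.08 and 0.58. The median of the complex was -0.12 with the brightest probe sets and 0.14 with the mean of probe sets, so the sign of the complex II median depended on how probe sets were combined.

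In complex III, which carries electrons from ubiquinol to cytochrome c, 5 of 8 genes had a positive and 3 a negative difference, with a median of 0.05. The positive share was 62.5%, against 45.3% of all genes and 50.9% of those at or above the median level. Uqcrfs1, the Rieske iron-sulfur protein, was at 9.40 and 9.07 in N-myc high, against 8.98 and 8.74 in N-myc low. The groups did not overlap, and the difference was 0.37 (SE 0.22, limma adjusted p = 0.811). In mice, loss of the Rieske protein from blood-forming cells is known to disturb HSC quiescence. Uqcrb, a small ubiquinone-binding subunit, was at 12.00 and 11.94 in N-myc high, against 11.74 and 11.66 in N-myc low (difference 0.27, SE 0.17). Uqcrc2, a core subunit, was higher in both N-myc high arrays (difference 0.22, SE 0.17), although its other probe set gave -0.13. Uqcr11, whose window holds both an NRF1 and an ETS motif, was at 10.36 and 10.20 in N-myc high, against 10.58 and 10.46 in N-myc low (difference -0.24, SE 0.18). Uqcrc1, the other core subunit, gave -0.10 (SE 0.18) and Uqcrq -0.0014 (SE 0.25). Leaving out N-myc low mouse 1 put the median of the complex at 0.22, and leaving out N-myc low mouse 2 put it at -0.06.

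In complex IV, cytochrome c oxidase, 7 of 17 genes had a positive and 10 a negative difference, and the median was -0.06. The negative share was 58.8%, near the 54.7% of all genes. Several of its subunits exist as a widely expressed isoform and as isoforms of muscle, testis or lung, and the smallest p belonged to such an isoform. Cox6b2, known as a testis isoform, was at 9.85 and 9.71 in N-myc high, against 10.29 and 10.30 in N-myc low. The groups did not overlap, and the difference was -0.51 (SE 0.18, 95% interval -0.98 to -0.04, limma adjusted p = 0.779), from 1 probe set. Its widely expressed counterpart Cox6b1 was at 11.86 and 11.85 in N-myc high, against 12.00 and 11.76 in N-myc low (difference -0.02, SE 0.19). The difference between the isoforms was not tested.

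The other isoform pairs gave small differences. Cox4i1 and Cox4i2, the second of which is an isoform of lung and of hypoxic cells, gave -0.08 (SE 0.20) and -0.14 (SE 0.18). Cox6a1 gave -0.06 (SE 0.18) and the muscle isoform Cox6a2 0.28 (SE 0.20). Cox7a2 gave -0.06 (SE 0.19), the muscle isoform Cox7a1 -0.10 (SE 0.31) and Cox7a2l 0.17 (SE 0.21). Cox8a gave 0.22 (SE 0.20), the muscle isoform Cox8b 0.24 (SE 0.20) and the testis isoform Cox8c 0.04 (SE 0.18), and the testis isoform Cox7b2 gave -0.28 (SE 0.17) at levels of 2.51 and 2.45 in N-myc high, against 2.77 and 2.75 in N-myc low. The core-bound subunit Cox5a gave -0.07 (SE 0.24). Cox7a1, Cox7b2, Cox8b and Cox8c, together with Ndufa4l2, were the 5 members whose mean lay below the median of all genes, where no measured background stands beside the value.

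**Figure D3:**
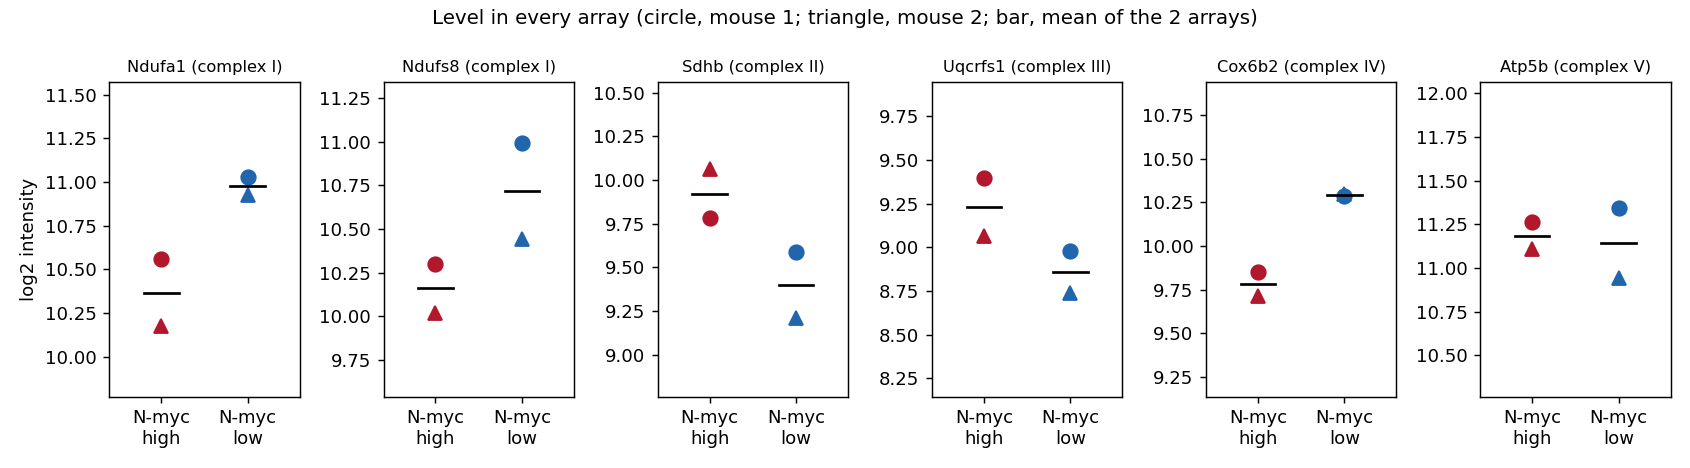
Log2 intensity in every array for the gene of smallest p in complexes I to IV, for Ndufs8 and for the ATP synthase beta subunit gene Atp5b, with N-myc high on the left and N-myc low on the right (circle, mouse 1; triangle, mouse 2; bar, mean of 2 arrays; each axis spans 1.8 log2 units). Ndufa1, Ndufs8 and Cox6b2 were lower and Sdhb and Uqcrfs1 higher in both N-myc high arrays, while Atp5b overlapped.

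Genes of complex V, the ATP synthase, were the closest to each other in the 2 fractions. Their differences ranged from -0.20 to 0.22, the median was 0.01, and the interval of all 17 lay within 1 log2 unit of 0. The catalytic beta subunit gene Atp5b was at 11.26 and 11.11 in N-myc high, against 11.34 and 10.94 in N-myc low, so the groups overlapped (difference 0.04, SE 0.22, 95% interval -0.55 to 0.64). Atp5a1, which encodes the alpha subunit, was at 12.43 and 12.29 in N-myc high, against 12.63 and 12.49 in N-myc low, without overlap (difference -0.20, SE 0.18), and its 3 probe sets had the same sign. Atp5d of the central stalk and Atp5md gave -0.19 (SE 0.22) and -0.15 (SE 0.20), and Atp5j, of the peripheral stalk, and Atp5k gave 0.17 (SE 0.19) and 0.17 (SE 0.22). The proton-carrying c subunit is made from Atp5g1, Atp5g2 and Atp5g3, which encode the same mature protein and gave -0.02 (SE 0.19), 0.22 (SE 0.21) and 0.03 (SE 0.18). Other, dimmer probe sets of Atp5g2 gave -0.72 and -0.06. With the mean of probe sets the median of the complex was -0.10.

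Probe sets of the same gene bore on these values. The 81 members had 164 probe sets, and 48 members had more than 1. All probe sets of a gene had the same sign in 25 of these members and at least 1 had the opposite sign in 23. The widest range was that of Ndufs4, an accessory subunit whose loss in mice models Leigh syndrome. Its brightest probe set gave -0.15 and the others -0.32, 0.30 and -1.78, the last from a dim probe set at 2.74 and 3.59 in N-myc high, against 4.57 and 5.32 in N-myc low. For Ndufb8 the values were -0.26 and -1.24, and for Atp5g1 -0.02 and -0.9997, again with the larger size in the dimmer probe set.

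**Figure D4:**
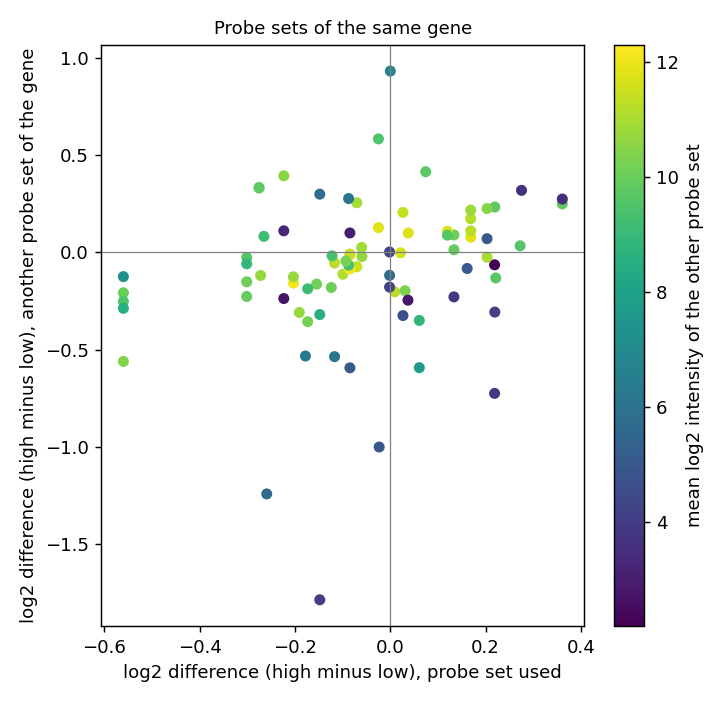
Log2 difference, N-myc high minus N-myc low, of each further probe set of a member (vertical) against that of the probe set that stood for the gene (horizontal), coloured by the mean log2 intensity of the further probe set. The points farthest from 0, such as -1.78 for Ndufs4, belong to dimmer probe sets.

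Other mitochondrial genes were read from 7 lists, in none of which did a gene pass the adjusted threshold. Of the 42 measured of 43 assembly factors of complexes I to V, 30 had a negative (71.4%, where 54.7% of all genes did) and 12 a positive difference, with a median of -0.14. Of these factors 37 lay at or above the median level, where 49.1% of genes had a negative difference. At an unadjusted limma p under 0.05 there were 3 higher and 4 lower, where 3.53% and 2.78% of all genes passed. Sdhaf3 and Sdhaf2, assembly factors of complex II, gave 1.28 (SE 0.31) and 0.80 (SE 0.21), and Cox11 and Surf1, of complex IV assembly, gave -1.16 (SE 0.26) and -0.98 (SE 0.26). The factors of a complex did not share a direction. Sdhaf4, also of complex II, gave -0.61 (SE 0.21). Cox17, of complex IV, gave 0.33 (SE 0.22, with 1 of 2 probe sets of that sign). Both Sdhaf4 and Cox17 were chosen for mention after their values were seen. Sdhaf2 was at 8.72 and 8.58 in N-myc high, against 7.69 and 8.01 in N-myc low, and Cox11 was at 6.57 and 6.63 in N-myc high, against 7.46 and 8.05 in N-myc low. Sdhaf3, Sdhaf2, Cox11 and Surf1 had groups that did not overlap and limma adjusted p values of 0.762.

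The 76 mitochondrial ribosomal proteins, which translate the subunits encoded in mitochondrial DNA, had a median of -0.11, with 55 negative (72.4%, where 54.7% of all genes were) and 21 positive differences. All 76 lay at or above the median level, where 49.1% of genes had a negative difference. At the unadjusted threshold 6 were lower and 0 higher, where 2.78% and 3.53% of all genes were. The lower ones included Mrpl37 with -0.92 (SE 0.22) and Mrpl11 with -0.95 (SE 0.25). On the higher side Mrps31 gave 0.84 (SE 0.39, with 1 of 2 probe sets of that sign) and Mrpl10 0.36 (SE 0.17). Their highest array was N-myc low mouse 1 for 45 of 76 genes (59.2%, against 27.7% of all genes), as for the respiratory subunits. The median was 0.04 without that array. Of 18 genes for copying and expressing mitochondrial DNA the median was 0.07, and Tufm, the mitochondrial elongation factor, gave the smallest p of all these lists. It was at 9.62 and 9.75 in N-myc high, against 8.54 and 8.46 in N-myc low, a difference of 1.18 (SE 0.18, limma adjusted p = 0.744), and 3 of its 4 probe sets had that sign. The others named there were Ssbp1 (0.41, with 1 of 5 probe sets of that sign) and Mterf4 (-0.85, SE 0.48). Polrmt gave -0.55 (SE 0.38), with 1 of 2 probe sets of that sign.

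Of 13 regulators of mitochondrial gene expression, 9 had a positive (69.2%, against 45.3% of all genes) and 4 a negative difference (median 0.16). The coactivator gene Ppargc1a was at 5.30 and 5.15 in N-myc high, against 4.65 and 4.11 in N-myc low (difference 0.85, SE 0.25, limma adjusted p = 0.769), and the deacetylase gene Sirt1 gave 0.54 (SE 0.22). On the other side Ppara gave -0.27 (SE 0.19) and Pprc1 -0.20 (SE 0.22). The 17 measured of 18 citric acid cycle and pyruvate dehydrogenase genes had a median of 0.07. Ogdh was at 0.63 (SE 0.28, with 1 of 2 probe sets of that sign) and Dlat at 0.45 (SE 0.29). On the other side were Pdhx at -0.51 (SE 0.18), the 1 gene under the unadjusted threshold, and Dld at -0.51 (SE 0.32). A list of mobile carriers, subunits and related genes outside the symbols used (10 measured of 11) had a median of -0.13. Etfb was at -0.27 (SE 0.18) and Cyc1, cytochrome c1, at -0.25 (SE 0.18), against Dhodh at 0.22 (SE 0.32) and Etfdh at 0.13 (SE 0.32). Neither Dhodh nor Etfdh encodes a mobile carrier or a subunit of these complexes. Carriers and pores of the mitochondrial membranes (12 of 13) had a median of 0.05. Vdac3 was at 0.16 and Slc25a12 at 0.17 (with 2 of 3 probe sets of that sign), against Slc25a13 at -0.74 (SE 0.29) and Ckmt1 at -0.30 (SE 0.18).

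**Figure D5:**
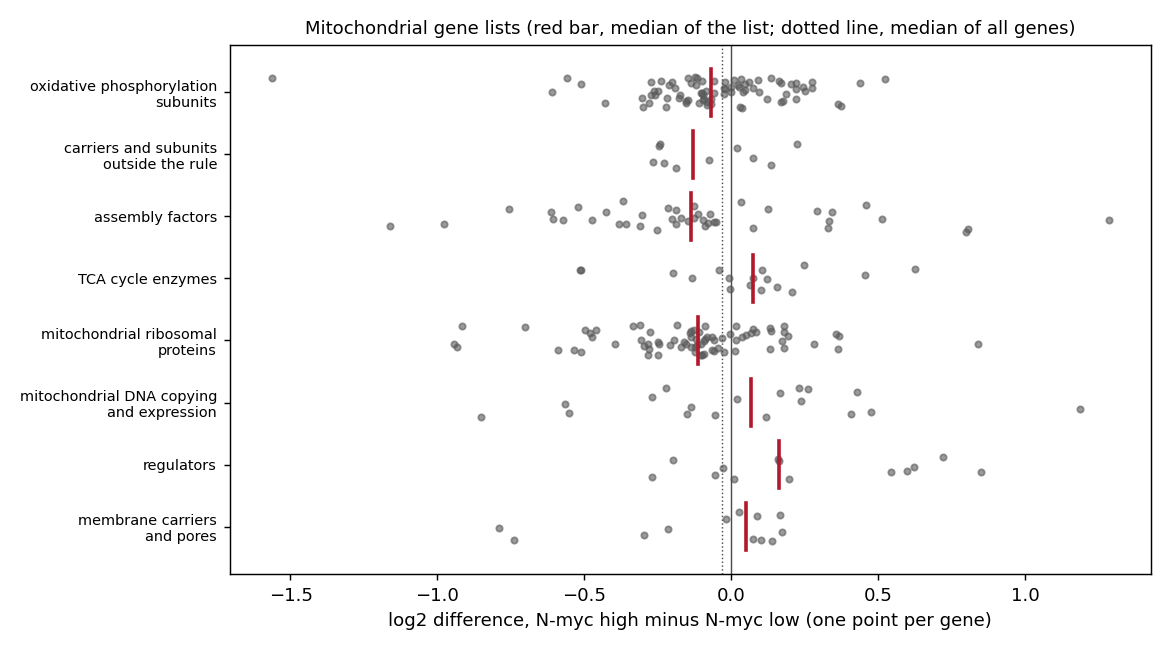
Log2 difference, N-myc high minus N-myc low, of each gene (point) in the respiratory subunits and 7 other mitochondrial lists, with the list's median (red bar) and the median of all genes (dotted line, -0.03). The medians lie between -0.14 and 0.16, and the subunits are more tightly spread than the assembly factors, which reach -1.16 and 1.28.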

How the data were processed

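Total RNA (5 ng) of each of 4 HSC samples, 2 N-myc high and 2 N-myc low, was amplified and biotin-labelled with NuGEN reagents, per the labels' protocols. The authors deposited log2 intensities per probe set, made with RMA (affy and limma are also named, without versions), per the submitters' processing notes. RMA removes shifts shared by a whole array. No genome build or chip definition is given in the sources used here. Of 45101 probe sets, 34945 named 1 gene in the platform annotation, 932 named several and 9160 were unnamed here, beside 64 controls. For 34741 the Entrez number was found in RefSeq (GRCm38.p6), which changed 0 symbols. The number of arrays limits precision.

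All 18193 genes were fitted with limma 3.58.1 in R 4.3.3 (lmFit, eBayes, default prior with 2.51 degrees of freedom), with Benjamini-Hochberg adjustment over all genes and 0.05 as the threshold. An exact permutation test of 1 value could not go below a two-sided p of 0.333. On simulated data for the 18193 genes, the fit called 0% of genes given a log2 change of 1, 4.48% given 2 and 50.2% given 3, beside a mean of 2.35 false calls. The labels give a mouse number in both fractions, and arrays of the same number were read as paired. Whether mouse 1 was a single animal was not tested. Deviations of same-numbered arrays from group means correlated at 0.0492 over all genes and 0.260 over the members. Xist separated mouse 1 from mouse 2 in both fractions; with 2 arrays per fraction, p-values measure the spread between these arrays.

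Members and lists were chosen with earlier results of these data known. Genes named were, per complex and direction, the 3 of smallest p, all of complex II, core subunits, isoform pairs, the 3 members with the widest range over probe sets, and 2 per list and direction. Promoter windows are from RefSeq; levels of different probe sets were not ranked. Alternatives were the mouse as a block, the mean of probe sets, a filter on dim genes, another eBayes prior, centred arrays, hybridisation controls as a covariate and leaving out each array.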

Additional observations from a re-analysis of the deposited data

How the results depend on the processing

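No member passed the adjusted threshold under any of the 10 alternatives, where the lowest limma adjusted p among members was 0.542 to 0.957. In the main fit 2 members and 1148 of all 18193 genes had an unadjusted limma p under 0.05. The mouse as a replicate block (paired fit) left 1 member and 1098 genes. The mean of probe sets gave 4 members and 1222 genes, and trend and robust in eBayes gave 4 and 1140. A covariate made from the hybridisation controls gave 1 member and 1366 genes, and centred arrays gave 0 and 1160. Without dimmer genes there were 0 members and 606 of the genes kept. Fits that left out an array are not counted here, because 1 array of a fraction remained. With the mean of probe sets the median was 0.14 in complex II and -0.10 in complex V. With the hybridisation controls as a covariate, which leaves 1 residual degree of freedom, the medians were -0.37 in complex I, -0.0825 in complex III, -0.24 in complex IV and -0.15 in complex V, and -0.12 in citric acid cycle genes, -0.34 in mitochondrial ribosomal proteins and -0.0378 in membrane carriers. The controls were at 11.03 and 11.003 in N-myc high, against 11.25 and 11.84 in N-myc low.

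Leaving out each array in turn gave medians of -0.27 to -0.0094 in complex I, -0.13 to -0.0323 in complex II, -0.0593 to 0.22 in complex III, -0.17 to 0.0819 in complex IV, -0.0936 to 0.0633 in complex V, -0.0367 to 0.13 in citric acid cycle genes, -0.26 to 0.0445 in mitochondrial ribosomal proteins and -0.10 to 0.0888 in membrane carriers. Members with all N-myc high arrays above all N-myc low arrays numbered 12 to 35. Those with all N-myc high arrays below numbered 24 to 50 (14 to 26 in complex I). Fewer arrays make such separation easier for any gene, so these counts need the share of all genes, given here for only some of these fits. Without N-myc low mouse 2, 50 of the 81 members lay below (26 of the 35 in complex I), where 38.5% of all genes did. The N-myc low array left in that fit was mouse 1, the highest of the 4 arrays for 44 of the 81 members. Without N-myc high mouse 1, 17 of the 81 members lay above, where 31.5% of all genes did. In that fit 33 members lay below (16 of the 35 in complex I), where 34.3% of all genes did. These complex I counts under the alternatives were added after the data were seen. Of 45 members named by rule, 4 to 8 changed sign without an array, 6 with the mean of probe sets, 4 with centred arrays and 11 with the hybridisation controls. The causes were not tested. Signal over background was not measured for dim probe sets.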

Other observations

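Probe sets that name several genes were kept out of the fit, and 9 of them hold a symbol of the respiratory subunits. The brighter probe set shared by Ndufa11 and Ndufa11b was at 10.40 and 10.57 in N-myc high, against 10.76 and 10.37 in N-myc low. The probe set shared by Ndufs6 and Ndufs6b was at 10.47 and 10.06 in N-myc high, against 10.22 and 10.54 in N-myc low. The probe set shared by Ndufs5, an accessory subunit of complex I, and its pseudogene was at 10.47 and 10.22 in N-myc high, against 10.73 and 10.63 in N-myc low, a difference of -0.34 without overlap between the groups. A dimmer probe set of Atp5c1, the gamma subunit gene of the ATP synthase, was at 7.14 and 7.26 in N-myc high, against 6.33 and 6.21 in N-myc low, a difference of 0.93, while the brighter probe set used for the gene gave 0.0002. Both Atp5c1 values were chosen for mention after they were seen.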
